A study of Homo sapiens with 9 samples.

Results

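TC/AVE and TC/CP are Ewing sarcoma cell lines that were both derived from the line TC-71 by 6 months of growing exposure to an antibody against the insulin-like growth factor 1 receptor (IGF-1R). They were selected with different antibodies, AVE1642 for TC/AVE and figitumumab for TC/CP, and were compared with each other here across all measured genes. The members were chosen by title, as the 2 arrays of TC/AVE and the 2 arrays of TC/CP, which are 4 of the 9 arrays of the series. Exposure reached 10 µg/ml for AVE1642, and the labels do not give the highest concentration of figitumumab. The parental line, TC-71, had 3 samples with 1 array each and gave the level from which each selected line departed. A further line, TC/AEW, selected with the kinase inhibitor NVP-AEW541 at up to 5 µM, shared the filter and the fit. Its levels are given beside the others for some genes and along chromosome 1. The growth medium was Iscove medium with 10% fetal serum, and total RNA was read on Affymetrix HG-U133 Plus 2 arrays. Each selected line is a single selection, its arrays are technical replicates per the labels, and no selected line has a biological replicate.

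IGF-1R is a receptor tyrosine kinase that signals, after binding IGF-1 or IGF-2, through IRS adaptors to PI3K and AKT and through RAS to ERK. Ewing sarcoma is a bone and soft tissue tumour driven in most cases by the fusion transcription factor EWSR1-FLI1, and its cells commonly depend on IGF signalling. Antibodies of the class of AVE1642 and figitumumab bind the receptor outside the cell, block its ligands and lead to its removal from the surface. The question addressed by this comparison is where the RNA of cells selected with one such antibody differs from that of cells selected with the other.

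Levels are log2 values, differences are TC/AVE minus TC/CP on the log2 scale, and errors of differences are moderated standard errors from limma. Array medians lay between 5.39 and 5.45. Over 14181 genes, which are no independent replicates, both arrays of TC/AVE correlated at 0.998, those of TC/CP at 0.997, and an array of TC/AVE with an array of TC/CP at 0.970. The TC-71 samples correlated at 0.962 to 0.983, so that by this measure the lines lay no further from each other than samples of TC-71 did. A gene lay at a median of 0.209 from TC/AVE to TC/CP, and its median range over the TC-71 samples was 0.427. The first value is between means of 2 arrays and the second spans 3 single arrays, so their sizes cannot be compared directly. TC/AVE and TC/CP were in different array sets, named by the array labels, and each set held its own TC-71 sample, sample 2 with TC/AVE and sample 3 with TC/CP. TC/AEW was in the set of TC/AVE. Line and array set therefore cannot be told apart, except as far as the difference within array sets goes, in which each line is first set against the TC-71 sample of its own set. The Ewing label was checked on markers: of 7 listed, 6 passed the filter and NR0B1 did not. The mean level of the 6 was 9.95 to 10.04 in TC/AVE, 9.83 to 9.87 in TC/CP and 10.02 to 10.40 in TC-71. CD99, the surface protein used in diagnosis, stood at 12.99 and 13.00 in TC/AVE, at 12.93 and 12.94 in TC/CP and between 12.82 and 12.83 in TC-71.

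No gene passed the test. By limma, 0 of 14181 genes (0%) differed at an adjusted p under 0.05, the lowest adjusted p was 0.221, and 816 genes (5.75%) had an unadjusted p under 0.05. A rule of size, set against the parental spread, was used in its place. A gene is said to stand apart where the lines differed by at least 2-fold, both arrays of one line lay beyond both of the other, and the difference was larger than the range of the 3 TC-71 samples. The arrays of the lines did not overlap at 71.3% of all genes, so this condition alone selects little. By the whole rule 590 genes (4.16%) stood apart, 173 of them higher in TC/AVE (1.22%) and 417 lower (2.94%). Within array sets 376 of the 590 still reached 2-fold, 99 of the higher and 277 of the lower genes. The difference reached 4-fold for 25 of the higher and 73 of the lower genes. Near the threshold, TOE1 and PGBD2 were just inside at a difference of -1.0, and HERC4 at -0.9987 and RFC2 at -0.9960 were just outside. The lower line was under 5, close to the background of the arrays, for 100 of the 590 genes, and their true difference may be larger than the one given.

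TC-71 levels placed each of these genes. A line is called displaced where its mean lay at least 2-fold from the TC-71 mean and both its arrays lay beyond all 3 TC-71 arrays. Displaced in one line alone means here not in the other antibody-selected line, whatever the level in TC/AEW. Over all genes, TC/AVE was displaced upward at 275 (1.94%) and downward at 242 (1.71%), and TC/CP was displaced upward at 344 (2.43%) and downward at 108 (0.762%). Of the 173 genes higher in TC/AVE, 63 were displaced in TC/AVE alone, 23 in TC/CP alone and 81 in neither. Of the 417 genes lower in TC/AVE, 106 were displaced in TC/AVE alone, 133 in TC/CP alone and 154 in neither. A further 4 of the higher genes (CDH10, KLF7, MLC1 and RHOB) had TC/AVE displaced above and TC/CP below TC-71. The opposite, TC/AVE below and TC/CP above TC-71, held for 15 of the lower genes, among them NEFM, NEFL, MMP1, EPHA2, HERC5, IFI44 and INPP4B. Both lines were displaced the same way at 11 genes, 2 of them higher in TC/AVE (EMP1 and PLSCR4) and 9 lower, with SOX11, ENPEP and LGALS1 among these. The TC-71 mean lay between the lines for 447 of the 590 genes. Both displacements use the same TC-71 samples.

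**Figure D1:**
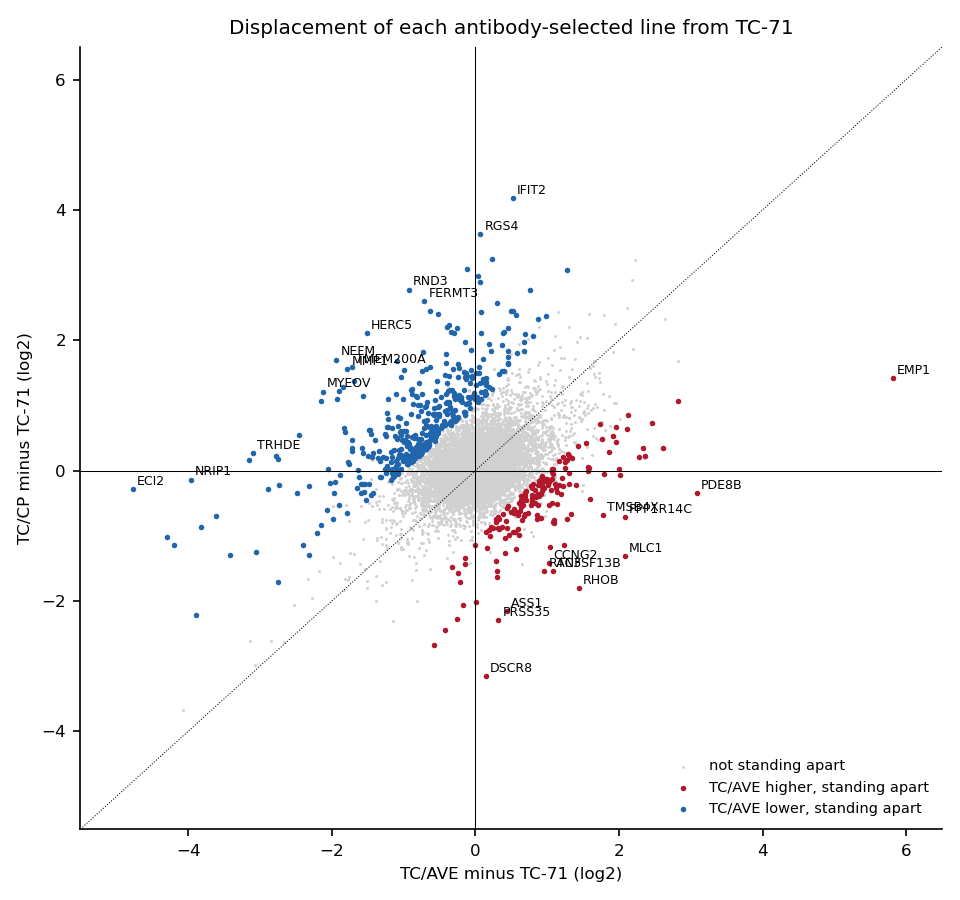
Displacement of TC/AVE from the TC-71 mean (horizontal, log2) against that of TC/CP (vertical, log2) for the 14181 genes, with the 590 genes standing apart coloured by direction. The 173 genes higher in TC/AVE lie below the diagonal and the 417 lower genes above it, many of these high on the TC/CP axis. Both axes use the same TC-71 samples.

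The genes most above TC/CP in TC/AVE were a membrane protein, a phosphodiesterase and an astrocyte protein. EMP1, a tetraspan membrane protein, stood at 9.68 and 9.62 in TC/AVE, at 5.22 and 5.27 in TC/CP, and at 3.06, 4.49 and 3.94 in TC-71. Both lines were above every TC-71 array, TC/AVE by far the more, with a difference of 4.40 ± 0.69 (limma adjusted p = 0.415), and 3 probe sets gave differences from 2.59 to 4.40. PDE8B, which degrades cAMP, stood at 8.21 and 8.18 in TC/AVE, at 4.89 and 4.66 in TC/CP, and at 5.18, 5.08 and 5.07 in TC-71. Here TC/AVE alone was displaced, while TC/CP lay a little under TC-71, and the difference was 3.43 ± 0.25 (limma adjusted p = 0.221). MLC1, a membrane protein known from astrocytes, stood at 9.88 and 9.89 in TC/AVE, at 6.47 and 6.52 in TC/CP, and at 8.07, 7.73 and 7.60 in TC-71. The TC-71 samples lay between the lines without overlap, and the lines differed by 3.39 ± 0.33, a 10.5-fold difference. PPP1R14C, an inhibitor of protein phosphatase 1, stood at 8.14 and 8.18 in TC/AVE, at 5.22 and 5.50 in TC/CP, and at 6.0, 6.02 and 6.21 in TC-71, with TC/AVE alone displaced.

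Other genes differed with TC/CP alone displaced, below TC-71. PRSS35, a serine protease homologue, stood at 6.82 and 7.20 in TC/AVE, at 4.45 and 4.35 in TC/CP, and at 6.32, 6.78 and 6.97 in TC-71. TC/AVE was close to the parental level and TC/CP was under it by 2.29. TC/AEW was also below every TC-71 array for PRSS35, at 4.04 and 4.45. ASS1, the argininosuccinate synthase of arginine synthesis, stood at 10.63 and 10.74 in TC/AVE, at 8.08 and 8.09 in TC/CP, and at 10.62, 10.83 and 9.30 in TC-71. TNFSF13B, the cytokine BAFF, stood at 9.10 and 8.96 in TC/AVE, at 6.52 and 6.28 in TC/CP, and at 7.11, 9.09 and 7.62 in TC-71. Both genes had TC/CP under every TC-71 array, and their differences of 2.60 and 2.63 came to 1.07 and 1.16 within array sets. DSCR8 had 8.23 and 8.21 in TC/AVE, 4.25 and 5.60 in TC/CP, and 8.08, 8.33 and 7.82 in TC-71, read by a probe set prone to cross-hybridisation.

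For several of the 12 genes with the highest differences the parental samples themselves varied. RHOB, a small GTPase of the actin cytoskeleton, stood at 10.88 and 11.02 in TC/AVE, at 7.77 and 7.64 in TC/CP, and at 9.30, 10.43 and 8.80 in TC-71. Its difference of 3.25 came to 1.62 within array sets, and its 3 probe sets differed by 0.12 to 3.25. RAC3, a related GTPase, stood at 8.73 and 8.90 in TC/AVE, at 6.17 and 6.45 in TC/CP, and at 8.45, 8.80 and 6.31 in TC-71. TC/CP matched the TC-71 sample of its own set, so that the difference of 2.50 was 0.01 within array sets. TMSB4X, which binds monomeric actin, and CCNG2, an atypical cyclin, differed by 2.46 and 2.44, and by 0.94 and 0.60 within array sets. For both, TC-71 sample 2, at 10.94 and 8.58, was the parental sample nearest TC/AVE.

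The genes most below TC/CP in TC/AVE included genes low in TC/AVE, genes high in TC/CP, and genes with the lines on opposite sides of TC-71. ECI2, an enoyl-CoA isomerase of fatty acid oxidation, stood at 4.15 and 3.95 in TC/AVE, at 8.54 and 8.52 in TC/CP, and at 8.65, 9.05 and 8.76 in TC-71. TC/AVE alone was near background, and the difference was -4.48 ± 0.31 (limma adjusted p = 0.221) from a single probe set. NRIP1, a corepressor of nuclear receptors, stood at 3.84 and 4.05 in TC/AVE, at 7.82 and 7.72 in TC/CP, and at 7.29, 8.47 and 7.97 in TC-71. TRHDE, a surface peptidase that cleaves thyrotropin-releasing hormone, stood at 3.79 and 4.44 in TC/AVE, at 7.50 and 7.46 in TC/CP, and at 6.79, 7.22 and 7.61 in TC-71. In all of these TC/CP stayed within or close to the parental range, and TC/AVE lay below it by 4.77 for ECI2, 3.96 for NRIP1 and 3.09 for TRHDE.

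For RGS4, FERMT3 and NT5E, TC/CP stood above TC-71 and TC/AVE lay nearer to it. RGS4, which limits signalling by G proteins, stood at 7.47 and 7.47 in TC/AVE, at 11.06 and 11.02 in TC/CP, and at 6.80, 8.18 and 7.23 in TC-71. FERMT3, the integrin activator kindlin-3, stood at 5.87 and 5.94 in TC/AVE, at 9.34 and 9.11 in TC/CP, and at 6.73, 6.49 and 6.64 in TC-71. TC/CP was above every TC-71 array for both, and above their mean by 3.63 for RGS4 and 2.60 for FERMT3. TC/AEW was above every TC-71 array for FERMT3 as well, at 7.83 and 7.91. NT5E, the surface enzyme CD73 that makes adenosine, was near background in TC/AVE (3.45 and 3.24) and TC-71 (3.45, 3.45 and 3.46) and stood at 6.79 and 6.31 in TC/CP. Its 3 kept probe sets differed by -3.21 to -1.71, and the probe set taken where no filter was applied by -0.36. The levels of MYEOV were 6.10 and 6.03 in TC/AVE, 9.36 and 9.44 in TC/CP, and 8.04, 8.56 and 7.97 in TC-71, so that the lines lay on opposite sides of the parent. TMEM200A lay the same way, at 4.14 and 3.61 in TC/AVE, at 7.08 and 7.29 in TC/CP, and between 5.04 and 6.36 in TC-71. The lines differed by -3.33 ± 0.38 for MYEOV and by -3.31 ± 0.66 for TMEM200A. Relative to the TC-71 mean, MYEOV was at -2.12 in TC/AVE and 1.21 in TC/CP, and TMEM200A at -1.72 and 1.59.

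**Figure D2:**
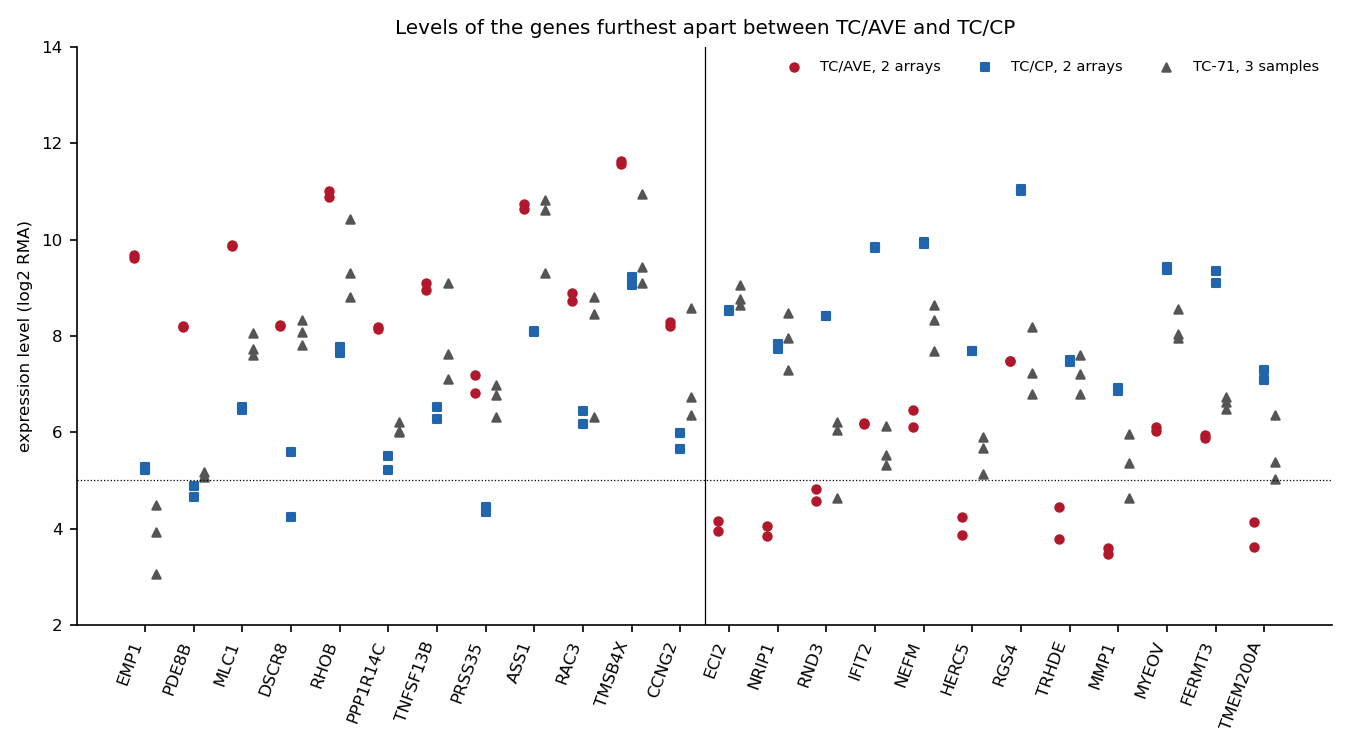
Log2 levels of the 12 genes with the highest and the 12 with the lowest difference, TC/AVE minus TC/CP, among genes standing apart. Each point is 1 array of TC/AVE, TC/CP or TC-71, in that order. In ECI2 TC/AVE alone lies far from TC-71, in RGS4 TC/CP alone, and in MLC1 the lines lie on opposite sides of it.

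Genes lower in TC/AVE lay close together on chromosome 1. Of the 1414 genes tested on that chromosome 108 stood apart as lower (7.64%), against 2.94% over all genes, and 6 stood apart as higher. Along each chromosome, the median difference was taken over each window of 25 neighbouring genes in the RefSeq order of GRCh38.p14, a measure chosen after the data were seen. Of 13581 windows, 143 had a median of -0.5 or less and 25 had a median of 0.5 or more, and overlapping ones were merged into 10 stretches, of which 5 were on chromosome 1. Since the stretches were picked by these differences, their values are a description. The widest ran from SH3GLB1 to UBL4B and held 92 genes, of which 77 were lower in TC/AVE and 32 stood apart. The median difference there was -0.71, made up of a median of 0.02 for TC/AVE and 0.68 for TC/CP relative to TC-71, and it was -0.75 within array sets. TC/CP was above the TC-71 mean at 87 of the 92 genes. The neighbouring stretch, LRIF1 to ADAM30, held 51 genes, 11 of them standing apart, with medians of -0.04 for TC/AVE and 0.64 for TC/CP relative to TC-71. In the stretch from IBA57 to IRF2BP2 TC/AVE was the line further from TC-71, at a median of -0.30 against 0.11 for TC/CP, and it lay below the TC-71 mean at 28 of 34 genes.

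Some single genes of these stretches with TC/CP above TC-71 were picked after their values were seen. SIKE1, a suppressor of innate immune kinases, stood at 8.34 and 8.47 in TC/AVE, at 10.80 and 10.72 in TC/CP, and at 8.15, 8.15 and 8.67 in TC-71. GCLM, the modifier subunit of the enzyme that begins glutathione synthesis, stood at 9.49 and 9.60 in TC/AVE, at 11.20 and 11.11 in TC/CP, and at 9.38, 9.17 and 9.42 in TC-71. F3, the tissue factor that starts blood coagulation, stood at 7.45 and 7.54 in TC/AVE, at 9.35 and 9.40 in TC/CP, and at 7.77, 7.36 and 8.08 in TC-71. In each of them TC/AVE lay close to the parental level and TC/CP above it, with differences of -2.36 for SIKE1, -1.61 for GCLM and -1.88 for F3. TGFBR3, the co-receptor betaglycan, and ABCD3, a peroxisomal fatty acid transporter, differed by -1.54 and -1.38 in the same way. Not all members did so. From SH3GLB1 to UBL4B, TC/CP alone was displaced at 23 of the genes standing apart, and TC/AVE alone at 2, HENMT1 and DPH5-DT. The chromosome 1 stretches together held 241 genes, with 61 of the 417 lower genes, and 356 remained without them.

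On chromosome 11 stretches of opposite direction were found. From TMEM126B to ARHGAP20, 60 of 67 genes were lower in TC/AVE, with medians of -0.43 for TC/AVE and 0.15 for TC/CP relative to TC-71, and the lowest difference there was that of MMP1. From RTN3 to SLC22A12, 24 of 28 genes were higher in TC/AVE, with medians of 0.31 for TC/AVE and -0.09 for TC/CP. RTN3, a reticulon of the endoplasmic reticulum, stood at 12.43 and 12.58 in TC/AVE, at 11.11 and 11.13 in TC/CP, and at 11.31, 11.48 and 11.36 in TC-71. FERMT3 lies in that stretch too, and was an exception in its direction. Chromosome copy number was not measured, and its part in these values was not tested.

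**Figure D3:**
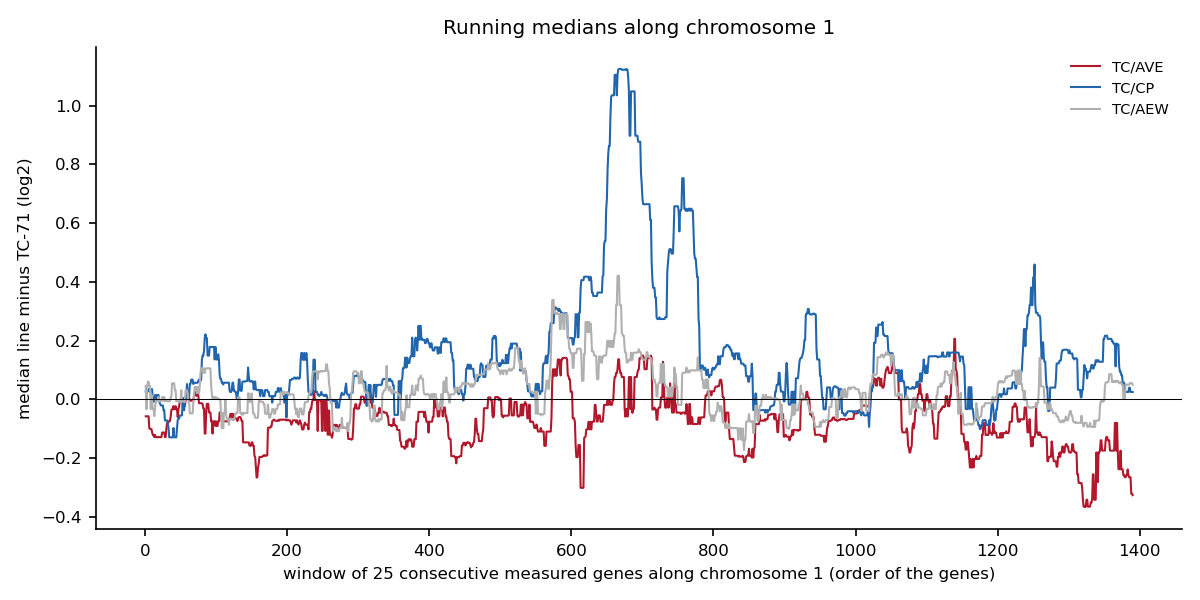
Running median over 25 neighbouring genes along chromosome 1 (horizontal, gene order) of the log2 difference from the TC-71 mean in TC/AVE, TC/CP and TC/AEW. The curve of TC/CP lies above that of TC/AVE over the stretch from SH3GLB1 to UBL4B, where the medians are 0.68 in TC/CP and 0.02 in TC/AVE. The windows were chosen after the data were seen.

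The receptor that both antibodies bind did not stand apart at the RNA level. IGF1R stood at 9.53 and 9.63 in TC/AVE, at 9.07 and 8.90 in TC/CP, and at 9.25, 9.40 and 9.26 in TC-71. TC/AVE lay just above and TC/CP just below the parental arrays, the difference was 0.59 ± 0.26 (limma adjusted p = 0.91), and the 5 probe sets differed by -0.04 to 1.19. The antibodies act on the protein, so this level checks no label. INSR, the insulin receptor, stood at 7.30 and 7.08 in TC/AVE, at 6.0 and 6.01 in TC/CP, and at 5.76, 6.47 and 6.29 in TC-71. INSR stood apart with a difference of 1.19 ± 0.42, TC/AVE alone being displaced. IGF2R, which clears IGF-2 without signalling, differed by -0.66, and the ligand gene IGF1 by 0.67, and neither stood apart. The 4 probe sets of IGF1 differed by 0.67 to 1.55. Of the 6 receptors and ligands measured 5 were higher in TC/AVE, with a median of 0.35, where 49.6% of all genes were higher.

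Among 10 binding proteins and 16 adaptors measured, 1 gene of each list stood apart, where 4.16% of all genes did. A single gene is near that share. IGFBP5, which binds IGFs outside the cell, stood at 7.71 and 7.95 in TC/AVE, at 6.45 and 6.29 in TC/CP, and at 6.47, 6.56 and 7.07 in TC-71, and its 5 probe sets differed by 0.32 to 1.46. GRB14, an adaptor that inhibits the insulin receptor, stood at 5.40 and 5.46 in TC/AVE, and near background at 3.86 and 4.23 in TC/CP and at 3.63, 3.58 and 3.32 in TC-71. TC/AVE was displaced in both genes. The docking proteins IRS1 and IRS2 differed by 0.13 and 0.49, and IRS2 was below all TC-71 arrays in both lines, at 11.63 and 11.68 in TC/AVE, at 11.17 and 11.16 in TC/CP, and between 11.92 and 12.08 in TC-71. IGFBP3, the main carrier of IGFs in serum, was near background in both lines. FLI1, which supplies the transcription factor part of the fusion, stood at 9.23 and 9.22 in TC/AVE, at 9.83 and 9.66 in TC/CP, and at 8.81, 8.81 and 9.49 in TC-71, and its 3 probe sets differed by -0.52 to 0.54.

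Downstream of the receptor, 2 of 24 genes of PI3K, AKT and mTOR stood apart, both lower in TC/AVE, where 2.94% of all genes did. INPP4B, a phosphatase that removes a PI3K product, stood at 3.90 and 3.87 in TC/AVE, at 6.93 and 6.92 in TC/CP, and at 5.19, 6.90 and 5.36 in TC-71. PIK3CG, the catalytic subunit p110 gamma, stood at 5.10 and 5.17 in TC/AVE, at 6.96 and 6.83 in TC/CP, and at 4.42, 5.85 and 4.59 in TC-71. TC/CP lay above the parental mean in both, and TC/AVE below all parental arrays for INPP4B alone. The probe sets of PIK3CG differed by -1.76 and -0.35. None of 14 genes of the RAS and ERK cascade itself stood apart, where the background is 4.16%.

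Genes that ERK activity induces, many of which feed back on it, were mostly lower in TC/AVE. Of 19 measured, 15 were lower and 4 higher, where 50.3% of all genes were lower. Their median was -0.60 (-0.48 within array sets) against one near 0 over all genes. As lower, 3 stood apart, where 2.94% of all genes did. SPRY4, a Sprouty inhibitor of receptor signalling, stood at 5.77 and 5.18 in TC/AVE, at 8.40 and 8.43 in TC/CP, and at 5.29, 5.32 and 5.68 in TC-71. DUSP6, the phosphatase of ERK, stood at 8.25 and 8.19 in TC/AVE, at 10.68 and 10.64 in TC/CP, and at 8.07, 9.15 and 8.21 in TC-71. For both TC/CP was above every TC-71 array while TC/AVE lay at the parental level. EPHA2, an ephrin receptor, stood at 6.09 and 5.95 in TC/AVE, at 8.36 and 8.62 in TC/CP, and at 6.98, 6.97 and 7.22 in TC-71, with the lines on opposite sides of the parent. The median of the 19 genes relative to TC-71 was 0.19 in TC/AVE and 0.64 in TC/CP. FOSL1, an AP-1 subunit among the immediate early factors, differed by -1.83, with TC/CP displaced upward. In the same list KLF2 and KLF6, zinc finger factors, were higher in TC/AVE, by 2.02 and 1.87, with TC/AVE displaced upward. Their differences came to 1.04 and 1.33 within array sets, and the probe sets of KLF2 ranged from 0.19 to 2.02. TC/AEW was also above every TC-71 array, at 8.54 and 8.93 for KLF2 and at 10.02 and 10.07 for KLF6.

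Of 30 other receptor kinases 3 stood apart, and of 28 growth factors and ephrins another 3, where 4.16% of all genes did. RET, the receptor of the GDNF family, stood at 5.13 and 5.19 in TC/AVE, at 7.45 and 7.11 in TC/CP, and at 5.36, 5.10 and 5.45 in TC-71. KITLG, the ligand of KIT, stood at 5.12 and 5.13 in TC/AVE, at 6.86 and 6.85 in TC/CP, and at 5.13, 5.78 and 5.63 in TC-71. TC/CP lay above every TC-71 array for both and TC/AVE for neither. KITLG was also above them in TC/AEW, at 6.26 and 6.29, and the probe sets of RET differed by -2.12 to -0.67. ROR1, an orphan receptor of the WNT5A type, was higher in TC/AVE, at 7.86 and 8.01 in TC/AVE, at 6.92 and 6.82 in TC/CP and between 6.72 and 7.06 in TC-71, with probe sets from 0.30 to 1.06.

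Most genes of antigen presentation were higher in TC/AVE, while interferon-induced genes had no common direction. Type I interferon induces both sets through interferon-stimulated response elements, and the IFIT genes bind viral RNA. The promoters of 5 of the 6 interferon genes that stood apart are shown, and each holds a motif of this response. That of IFIT2 is not analysed here. Each line below gives the 200 bases before the RefSeq start on GRCh38.p14, 5′ to 3′, with matches to GAAANNGAAA, or TTTCNNTTTC on the other strand, in capitals. The stretches are chr4:88456919-88457118 for HERC5, chr10:89327797-89327996 for IFIT3, chr10:89392423-89392622 for IFIT1, chr1:78649589-78649788 for IFI44 and chr11:313840-314039 for IFITM1, all on the plus strand, and matches overlap in HERC5.
HERC5: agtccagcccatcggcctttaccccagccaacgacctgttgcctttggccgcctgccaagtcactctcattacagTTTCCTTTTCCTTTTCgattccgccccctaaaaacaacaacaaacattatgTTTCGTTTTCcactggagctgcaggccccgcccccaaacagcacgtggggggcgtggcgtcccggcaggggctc
IFIT3: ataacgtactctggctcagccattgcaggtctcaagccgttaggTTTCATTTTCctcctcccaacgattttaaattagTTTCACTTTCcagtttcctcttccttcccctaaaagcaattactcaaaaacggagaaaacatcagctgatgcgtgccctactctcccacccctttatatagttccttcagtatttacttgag
IFIT1: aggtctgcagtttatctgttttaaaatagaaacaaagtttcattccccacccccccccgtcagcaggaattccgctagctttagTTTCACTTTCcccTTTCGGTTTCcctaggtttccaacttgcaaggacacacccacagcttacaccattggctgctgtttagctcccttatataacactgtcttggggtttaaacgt
IFI44: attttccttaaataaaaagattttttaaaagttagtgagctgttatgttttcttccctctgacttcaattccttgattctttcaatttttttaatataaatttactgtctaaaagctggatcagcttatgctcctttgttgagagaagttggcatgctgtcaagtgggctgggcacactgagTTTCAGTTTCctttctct
IFITM1: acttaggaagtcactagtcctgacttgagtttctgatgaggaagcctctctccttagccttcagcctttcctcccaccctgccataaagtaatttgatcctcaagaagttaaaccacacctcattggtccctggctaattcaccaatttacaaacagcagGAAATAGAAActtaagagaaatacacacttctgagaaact
Of 16 interferon genes with a listed promoter 12 (75.0%) held the motif in the 250 bases before the start, and so did 6 of 12 HLA and peptide loading genes (50.0%), against 3.07% of all 27305 promoters. A match is a description of the letters and no measured binding.

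Of 22 interferon genes measured, 13 were lower and 9 higher in TC/AVE, and 5 stood apart as lower with 1 as higher. Over all genes 50.3% were lower, so 13 of 22 is near the background, and 2.94% stood apart as lower and 1.22% as higher. IFIT2 stood at 6.19 and 6.17 in TC/AVE, at 9.84 and 9.83 in TC/CP, and at 5.52, 6.12 and 5.33 in TC-71. IFIT3 stood at 5.93 and 6.17 in TC/AVE, at 9.08 and 9.05 in TC/CP, and at 5.18, 6.49 and 5.81 in TC-71. IFIT1 stood at 7.41 and 7.20 in TC/AVE, at 9.20 and 9.41 in TC/CP, and at 5.99, 7.32 and 6.30 in TC-71. The IFIT genes were thus high in TC/CP, with TC/AVE within or just above the parental range, and the differences were -3.66 ± 0.44, -3.01 ± 0.64 and -2.0 ± 0.67. A second probe set gave -2.04 for IFIT2 and -1.72 for IFIT3. TC/AEW was also above every TC-71 array, at 8.06 and 8.24 for IFIT2 and at 7.73 and 7.95 for IFIT3. HERC5, the ligase that attaches ISG15, stood at 4.25 and 3.86 in TC/AVE, at 7.68 and 7.68 in TC/CP, and at 5.13, 5.90 and 5.67 in TC-71. IFI44 stood at 6.75 and 6.72 in TC/AVE, at 9.47 and 9.43 in TC/CP, and at 8.06, 8.80 and 8.07 in TC-71. In both, the lines lay on opposite sides of the parent. TC/AEW was above every TC-71 array for HERC5, at 7.86 and 7.96, but not for IFI44, at 8.50 and 8.70. IFITM1, a membrane protein that hinders viral entry, went the other way at 10.25 and 10.32 in TC/AVE, 9.30 and 9.15 in TC/CP, and 9.09, 9.57 and 9.43 in TC-71, and its probe set may share signal with its close relatives. The promoters shown all hold the motif, and among their genes only IFITM1 was higher in TC/AVE. Whether the motif goes with the direction was not tested.

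Of 14 HLA class I and peptide loading genes, 12 were higher in TC/AVE, with a median of 0.71 (0.44 within array sets), and 2 stood apart, where 49.6% of all genes were higher and 1.22% stood apart as higher. TAP1, a subunit of the peptide transporter, stood at 7.01 and 7.19 in TC/AVE, at 6.11 and 6.06 in TC/CP, and at 5.72, 6.07 and 6.03 in TC-71. HLA-E, a class I molecule seen by natural killer cells, stood at 8.70 and 8.68 in TC/AVE, at 7.71 and 7.73 in TC/CP, and at 8.05, 7.93 and 7.83 in TC-71, a difference of 0.97 that misses the threshold. TC/AVE was above all TC-71 arrays in both genes. So was TC/AEW, at 7.03 and 6.74 for TAP1 and at 8.08 and 8.40 for HLA-E. CALR, a chaperone of peptide loading, differed by 1.45, but its 3 probe sets ranged from -0.27 to 1.45. Relative to TC-71 the median of the 14 genes was 0.68 in TC/AVE and 0.03 in TC/CP. HLA genes resemble each other in sequence, and probe sets may share signal among them.

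**Figure D4:**
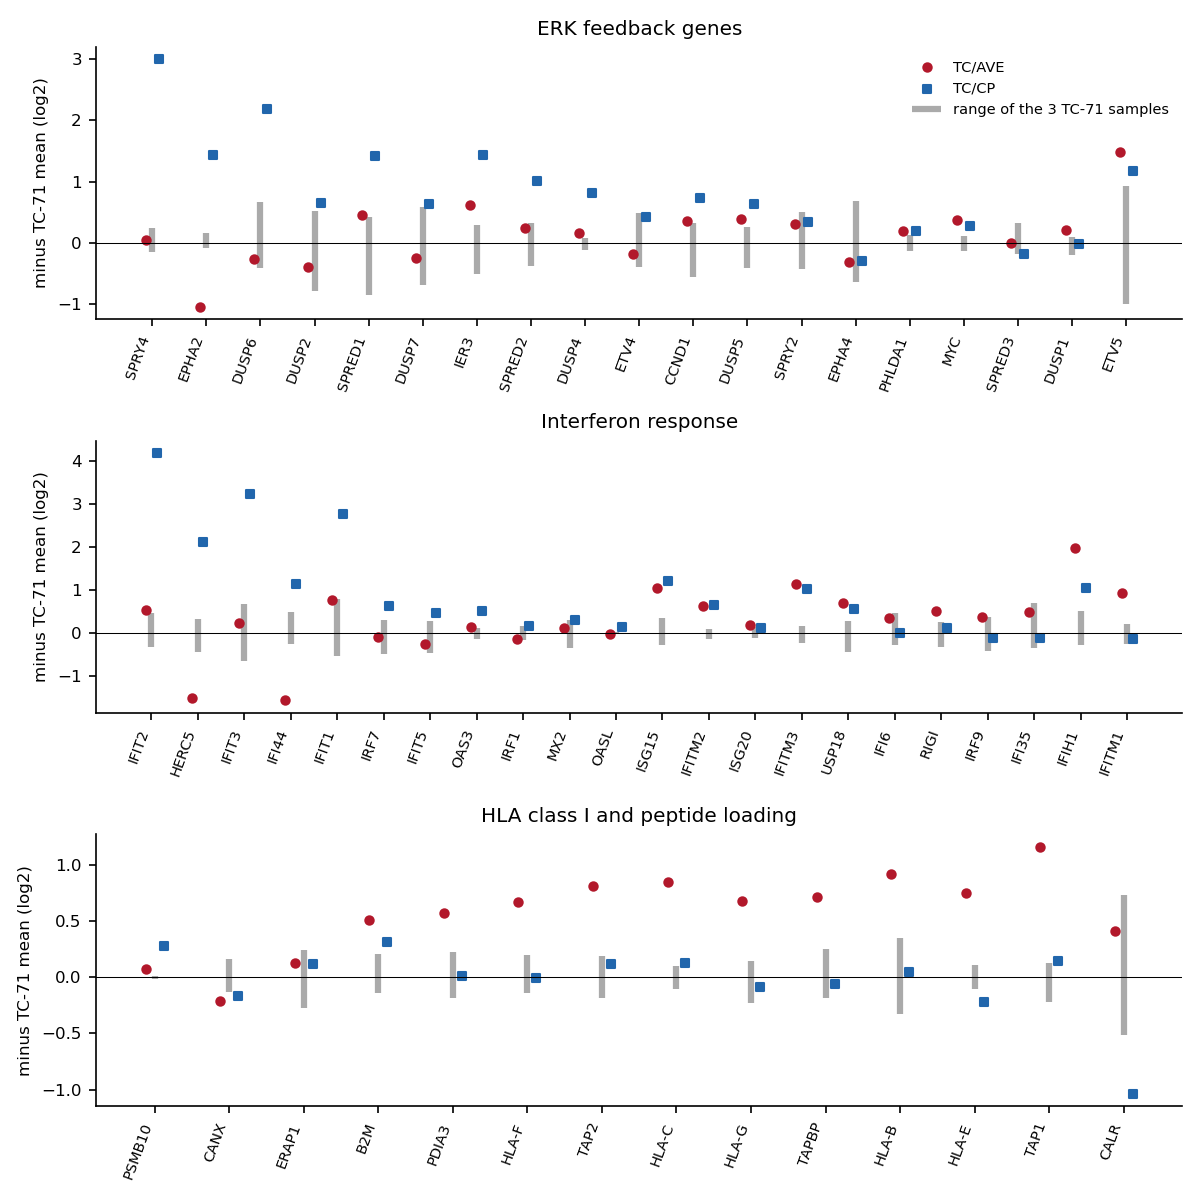
Level of each measured gene of ERK feedback, interferon response and antigen presentation in TC/AVE and TC/CP, each minus the TC-71 mean (log2), with grey bars for the range of the 3 TC-71 samples. SPRY4, DUSP6 and the IFIT genes lie above that range in TC/CP, and HLA-E and TAP1 lie above it in TC/AVE.

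Neurofilament genes were lower in TC/AVE and higher in TC/CP than in the parent. NEFM stood at 6.11 and 6.46 in TC/AVE, at 9.95 and 9.90 in TC/CP, and at 7.68, 8.34 and 8.65 in TC-71. NEFL stood at 7.44 and 7.59 in TC/AVE, at 10.66 and 10.62 in TC/CP, and at 9.03, 9.37 and 9.67 in TC-71. TC-71 lay between the lines without overlap for both, and NEFH, at 11.43 and 11.45 in TC/AVE, 12.85 and 12.81 in TC/CP and between 11.91 and 12.61 in TC-71, lay in the same order. INA, the neuronal filament internexin, stood at 6.74 and 6.51 in TC/AVE, at 8.26 and 8.29 in TC/CP, and at 8.26, 8.06 and 8.46 in TC-71, so that TC/AVE alone was displaced. NES, the filament of neural progenitors, was high in TC/CP, at 7.94 and 7.96 against 5.65 and 5.69 in TC/AVE and between 5.98 and 6.85 in TC-71, though its 2 probe sets differed by -2.28 and -0.10. Over the list of 25 neural genes 14 were lower and 11 higher, with a median of -0.06, which is near the 50.3% of all genes that were lower. In it 6 stood apart as lower and 1, STMN4, as higher, against 2.94% and 1.22% of all genes. SOX11, a neural progenitor factor, stood at 5.56 and 5.91 in TC/AVE, at 9.04 and 8.97 in TC/CP, and at 10.35, 9.38 and 10.33 in TC-71, below the parent in both lines. SOX7, of the endothelial SOX group, stood at 6.82 and 6.86 in TC/AVE, at 4.58 and 4.56 in TC/CP and between 4.01 and 4.39 in TC-71, with probe sets differing by 0.93 and 2.27. It was above TC-71 in TC/AEW as well, at 5.94 and 5.67.

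Collagen genes were mostly lower in TC/AVE. Of 21 measured, 17 were lower and 4 higher, with a median of -0.42, and 6 stood apart, all lower, where 50.3% of all genes were lower and 2.94% stood apart as lower. COL4A2, of basement membranes, stood at 4.57 and 4.47 in TC/AVE, at 6.74 and 6.58 in TC/CP, and at 5.48, 5.11 and 5.33 in TC-71. COL4A1, its neighbour and partner chain, stood at 4.79 and 4.31 in TC/AVE, at 6.36 and 6.52 in TC/CP, and at 4.76, 5.12 and 5.06 in TC-71. For these TC/CP was displaced upward. TC/AEW was above every TC-71 array too, at 6.33 and 6.57 for COL4A2 and at 6.03 and 5.93 for COL4A1. By contrast COL3A1, a fibrillar chain, was low in TC/AVE, at 5.12 and 5.26 there, 7.28 and 7.24 in TC/CP, and 6.67, 7.97 and 7.08 in TC-71. The probe sets of COL3A1 differed by -2.07 to -0.07, and those of COL4A1 by -1.89 and -0.52. COL1A1 differed by -1.45, with probe sets from -1.45 to 0.21. Of 33 other mesenchymal and matrix genes, 6 stood apart as lower (MMP1, TNC, LOXL1, ELN, S100A4 and LAMC1) and 1, the proteoglycan gene DCN, as higher. Over all genes 2.94% stood apart as lower and 1.22% as higher. MMP1, the interstitial collagenase, stood at 3.59 and 3.48 in TC/AVE, at 6.92 and 6.86 in TC/CP, and at 4.64, 5.36 and 5.97 in TC-71. TNC, the matrix glycoprotein tenascin-C, was high in TC/CP alone, at 8.20 and 8.11 against 6.12 and 6.35 in TC/AVE. As the RNA came from bulk cultures, fewer cells of a kind and less RNA per cell cannot be told apart.

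Adhesion and morphogen genes went both ways. CDH10, a neural cadherin, stood at 8.86 and 8.95 in TC/AVE, at 6.46 and 6.61 in TC/CP, and at 7.25, 8.36 and 7.42 in TC-71. CDH3, P-cadherin, stood at 7.28 and 7.29 in TC/AVE, at 5.72 and 5.57 in TC/CP, and at 6.09, 6.09 and 6.28 in TC-71. Both were highest in TC/AVE, while PCDH7, PCDH8 and FAT3 of the same family stood apart as lower. The 4 probe sets of PCDH7 ranged from -1.33 to 0.47. In the TGF-beta and BMP list 4 of 33 genes stood apart as higher (BMP2, CHRDL1, BAMBI and LTBP1) and 2 as lower (TGFBR3 and ID2), against 1.22% and 2.94% of all genes. BMP2, a secreted morphogen, stood at 6.64 and 6.93 in TC/AVE, at 5.03 and 4.76 in TC/CP, and at 5.61, 5.51 and 5.96 in TC-71. In the WNT list 2 of 28 stood apart, both lower, where 2.94% of all genes did. WNT5A, a non-canonical ligand, stood at 6.94 and 7.09 in TC/AVE, at 9.11 and 9.03 in TC/CP, and at 8.70, 8.50 and 8.97 in TC-71. LEF1, a transcription factor of the canonical pathway, differed by -1.95, with TC/CP displaced upward and probe sets from -1.95 to 0.19.

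Sterol, stress and chromatin lists had most members on one side with few genes standing apart. Of 26 sterol and fatty acid synthesis genes 21 were higher in TC/AVE, with a median of 0.29 (0.35 within array sets). DHCR7, the last enzyme of cholesterol synthesis, stood at 11.19 and 11.12 in TC/AVE, at 9.91 and 10.11 in TC/CP, and at 9.96, 9.80 and 9.69 in TC-71. ELOVL6, which lengthens fatty acids, was the gene of that list standing apart as lower, with a difference of -1.14. Of 30 histone and DNA methylation regulators 24 were lower, with a median of -0.29, where 50.3% of all genes were lower. In it 1 gene stood apart, CBX2, a Polycomb subunit with probe sets from -1.06 to 0.17, and this count is near the 4.16% of all genes. The amino acid and unfolded protein response list had 25 of 26 genes higher in TC/AVE and a median of 0.54, but 7 higher, 19 lower and a median of -0.28 within array sets. ASNS, asparagine synthetase, stood at 12.04 and 12.07 in TC/AVE, 10.48 and 10.43 in TC/CP, and 10.33, 12.62 and 10.27 in TC-71, of which sample 2 was the high one. No gene of that list stood apart.

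**Figure D5:**
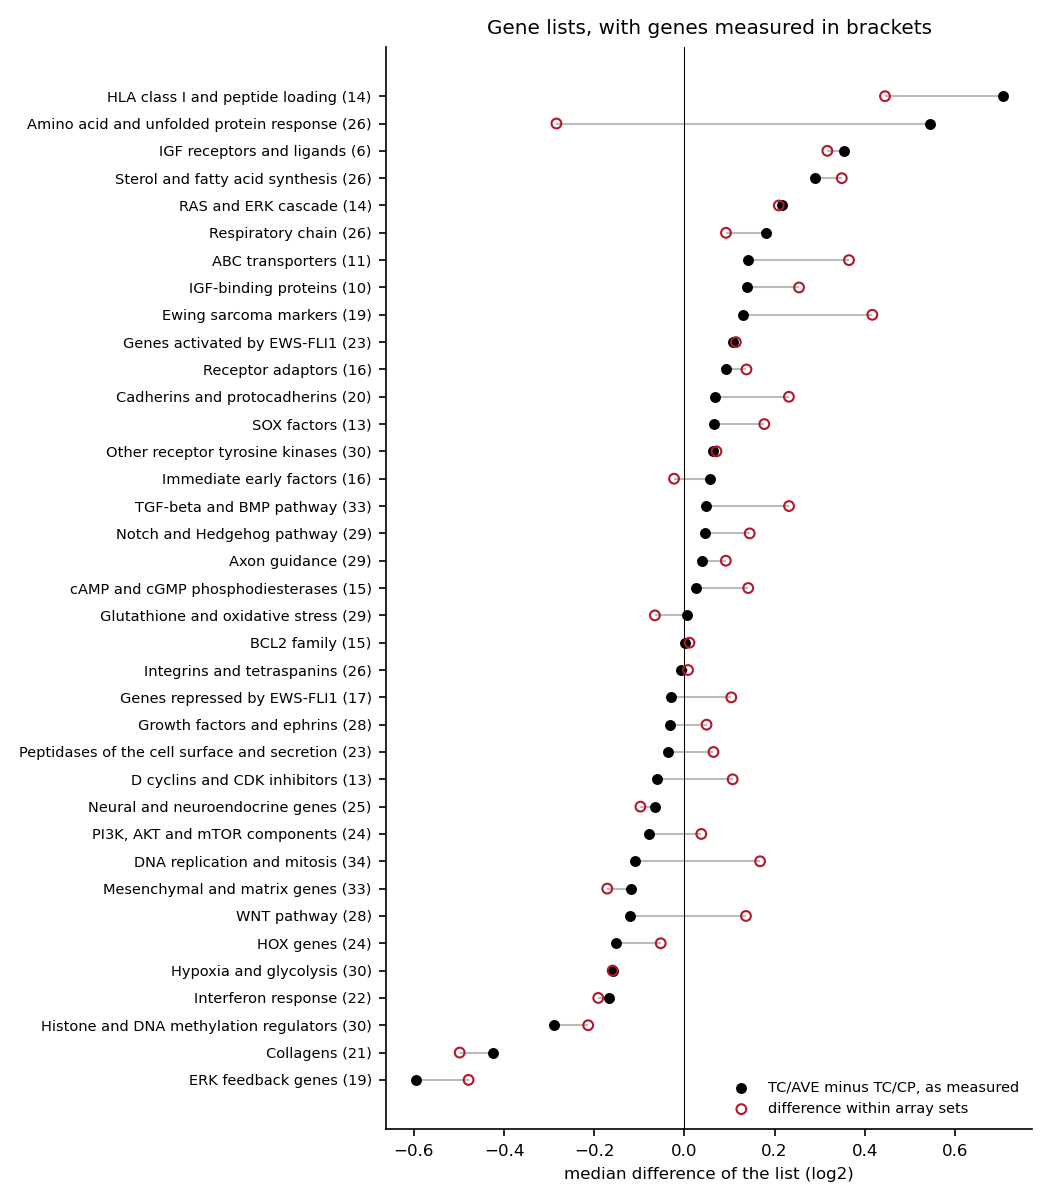
Median log2 difference, TC/AVE minus TC/CP, of the measured members of each gene list, as measured and within array sets. Antigen presentation is highest, at 0.71 as measured, ERK feedback is lowest, at -0.60, and the amino acid list turns from 0.54 to -0.28 within array sets.

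Markers of blood, epithelial and endothelial cells were low on average in both lines, and those of fibroblasts were mixed. Of 13 blood markers 4 passed the filter, with a mean level of 5.86 to 5.93 in TC/AVE, 5.74 to 5.83 in TC/CP and 5.71 to 5.92 in TC-71, and PTPRC, which encodes the pan-leukocyte protein CD45, did not pass. Of 13 epithelial markers 7 passed, at 5.40 to 5.48 in TC/AVE, 5.21 to 5.30 in TC/CP and 5.36 to 5.67 in TC-71, and EPCAM and CDH1 did not pass. Of 11 endothelial markers 6 passed, at 5.79 to 5.82 in TC/AVE, 5.66 to 5.82 in TC/CP and 5.53 to 5.89 in TC-71. None of these stood apart. Of 13 fibroblast markers 10 passed, at 6.24 to 6.26 in TC/AVE, 6.41 to 6.46 in TC/CP and 6.23 to 6.58 in TC-71. Of these, 3 stood apart, where 4.16% of all genes did, DCN as higher and COL1A1 and COL3A1 as lower. Their mean levels were 7.71 for DCN, 7.59 for COL1A1 and 5.19 for COL3A1 in TC/AVE, and 5.69, 9.04 and 7.26 in TC/CP. The part of other cell types in the results was not tested.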

How the data were processed

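RNA abundance was measured in 9 arrays of TC-71 and 3 lines selected from it. The authors deposited log2 levels per probe set. Per the submitters' processing notes, affy and RMA made them, and no versions are stated. All deposited sample columns were used, with 0 left over. Precision is limited by the number of arrays.

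After 62 control probe sets were left out, 54613 remained, of which 41091 had 1 gene symbol, 1801 several and 11721 none in the platform annotation, and 41037 of those with 1 symbol were found in RefSeq (GRCh38.p14). Probe sets reaching 5 on at least 2 of the 9 arrays were kept (26952), and each gene took the kept probe set of highest mean, an _x_at probe set serving only where the gene had no other, which gave 14181 genes.

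The technical replicate arrays of a line were averaged, which gave 6 samples in 4 groups. The contrast TC/AVE minus TC/CP was fitted with limma 3.58.1 in R 4.3.3. Tests were two-sided and adjusted by the Benjamini-Hochberg method over all genes, with 2 residual and 3.00 prior degrees of freedom. The residual spread came from TC-71 alone, the lines were assumed to vary like it, and no p-value covers more than the spread of these samples. The code was tested on simulated data. Alternatives covered the filter, the probe set, the normalization, each array left out, the array set and the replicate treatment.

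The members, gene lists and tests were chosen with earlier results of these data known. Named were the 12 largest differences in each direction among genes standing apart, at most 10 genes called per direction, IGF1R, INSR, IGF2R, IGF1, IRS1, IRS2, IGFBP3, IGFBP5, FLI1 and CD99, and up to 4 members per list with the largest absolute difference. Not every gene the rule selects is described in the text. Genes outside this rule, such as RTN3, F3, SIKE1 and those listed by which line was displaced, were chosen after their values were seen. Y-linked genes and XIST were left out of the named genes.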

Additional observations from a re-analysis of the deposited data

Results flagged for a closer look

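The lines lay on opposite sides of the parent for a small number of genes. TC/AVE was displaced below and TC/CP above TC-71 at 15 genes, and TC/AVE above and TC/CP below at 4 genes. No gene passed the limma test of the difference between the lines (0 called, 816 at an unadjusted p under 0.05), and both displacements use the same TC-71 samples.

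Probe sets with no symbol or with several symbols were outside the gene comparison and held signal of the same kind. Of 5977 kept, 89 stood apart as higher in TC/AVE and 104 as lower, together 3.23%, where the arrays of the lines did not overlap at 63.8% of them. They were not named.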

How the results depend on the processing

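With no biological replicate of a line, the test rests on 3 TC-71 samples, and line and array set differ together. Under all settings that kept each line as 1 sample, 0 genes were called. The count of genes standing apart lay between 473 and 650, except for 98 at a threshold of 4-fold. Technical replicate arrays taken as samples gave 1897 called genes over 9 arrays and 5876 over the 6 line arrays with a replicate block (5971 without it), and these counts take technical spread for that between samples. Arrays of the same number did not deviate together (r = -0.15 for TC/AVE with TC/CP, 0.20 for TC/AVE with TC/AEW, and -0.12 for TC/CP with TC/AEW), so the numbers pair no samples. The genes displaced the same way in both lines numbered 11, and 14 to 20 with 1 TC-71 sample left out, 20 without sample 2. The amino acid and unfolded protein response list reversed to a median of -0.28 within array sets, where TC-71 sample 2 enters on the TC/AVE side. The cause was not tested. Of 181 named genes, 159 had the same sign under every alternative that gave them a value. Among the 181, 90 stood apart, and all 90 kept their sign. Within array sets the rule fixed this in advance, since their difference exceeds the range of the TC-71 samples. Without the genes of the chromosome 1 stretches, an alternative chosen after the data were seen, 529 genes stood apart, 356 of them lower.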

Other observations

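Several genes of metabolism, chosen after their values were seen, separated the lines around the parent. CPS1, the enzyme that begins the urea cycle, stood at 4.87 and 4.53 in TC/AVE, at 7.77 and 7.86 in TC/CP, and at 5.67, 6.98 and 7.14 in TC-71. GBE1, the branching enzyme of glycogen synthesis, stood at 6.16 and 6.16 in TC/AVE, at 8.32 and 8.22 in TC/CP, and at 6.87, 7.32 and 7.30 in TC-71. STEAP3, a reductase of endosomal iron, stood at 7.34 and 7.41 in TC/AVE, at 9.70 and 9.62 in TC/CP, and at 8.54, 8.14 and 8.76 in TC-71. In all of them TC/AVE was below and TC/CP above every TC-71 array.

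Other genes were below the parent in both lines and lower in TC/AVE. ENPEP, the aminopeptidase A that processes angiotensin, stood at 5.48 and 5.42 in TC/AVE, at 8.51 and 8.49 in TC/CP, and at 9.42, 9.62 and 9.89 in TC-71. LGALS1, the lectin galectin-1, stood at 7.35 and 7.39 in TC/AVE, at 9.52 and 9.47 in TC/CP, and at 10.58, 11.36 and 10.42 in TC-71. ACAA2, a thiolase of mitochondrial fatty acid oxidation, stood at 7.50 and 7.51 in TC/AVE, at 8.80 and 8.72 in TC/CP, and at 9.82, 10.05 and 9.83 in TC-71. In the Notch and Hedgehog list 2 of 29 genes stood apart, both higher in TC/AVE, where 1.22% of all genes did. These were the Notch-responsive factors HES4 and HEY1, each by 1.04. The median difference of the list was 0.05.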
